A study of Mus musculus with 16 samples.

Results

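The 7 genes described here are Slc1a2, Slc1a3, Glul, Aqp4, Gja1, Gjb6 and Slc7a11, taken by symbol from the 32285 genes of the deposited matrices. They were read in nuclei with at least 500 unique molecular identifiers (UMIs, 1 per counted RNA molecule), at least 300 genes and at most 5% mitochondrial UMIs, in astrocytes and in 13 other classes of nuclei. Their functions are the uptake of glutamate, its conversion to glutamine, water transport, coupling between astrocytes and the exchange of cystine for glutamate.

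Single-nucleus RNA was sequenced from the hippocampus of female mice aged 9 months. The 4 groups of 4 libraries joined 2 genotypes with 2 tau states, as Ch25h+/+ Tau-, Ch25h+/+ Tau+ and, with the gene deleted, Ch25h-/- Tau- or Ch25h-/- Tau+, where Ch25h encodes cholesterol 25-hydroxylase, the enzyme that makes 25-hydroxycholesterol. The labels do not name the tau line or its promoter, do not describe the Ch25h deletion, and do not say outright that each library is 1 mouse, so p-values measure the spread between these libraries. Since the series title names an interferon-driven CH25H lipid route to tau disease, the groups ask how these 7 genes differ with tau, with Ch25h loss and with both.

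Astrocytes clear glutamate released at synapses through 2 transporters, EAAT2 (GLT-1, from Slc1a2) and EAAT1 (GLAST, from Slc1a3), and glutamine synthetase (from Glul) turns it into glutamine that neurons take back. Aquaporin-4 (from Aqp4) is the water channel of astrocyte endfeet around blood vessels. Connexin 43 (from Gja1) and connexin 30 (from Gjb6) form the gap junctions that join astrocytes into a network, and xCT (from Slc7a11) is the subunit that exchanges extracellular cystine for glutamate and thereby supplies glutathione synthesis.

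The genes lie on 7 chromosomes of GRCm38 in GENCODE M21. Slc1a2 (ENSMUSG00000005089) spans chr2:102658659-102790784 and Slc1a3 (ENSMUSG00000005360) chr15:8634124-8710764. Glul (ENSMUSG00000026473) spans chr1:153899944-153909723, and Aqp4 (ENSMUSG00000024411) is 21.5 kb long. Gja1 (ENSMUSG00000050953) spans chr10:56377330-56402513, Gjb6 (ENSMUSG00000040055) chr14:57123303-57133611 and Slc7a11 (ENSMUSG00000027737) chr3:49892526-50443614. Slc7a11 is 551.1 kb long and Glul 9.8 kb, and nuclear counts were not scaled to length, so levels are compared within a gene and never between genes. Counted genes overlap 4 of the 7 on the opposite strand: Gm13872 at Slc1a2, Teddm2 at Glul, AC133525.2 at Aqp4 and Gm37854 at Slc7a11, and whether the counting used strand is not given in the sources used here.

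Promoters from RefSeq (GRCm38.p6; 250 bases before to 50 after the gene's start) are shown for Glul, the gene with the lowest adjusted p of the 7 for tau over both genotypes, and for Gja1 and Gjb6, the 2 connexin genes that form junctions in the same cells. They lie at chr1:153899679-153899978 (plus strand), chr10:56377050-56377349 (plus strand) and chr14:57133562-57133861 (minus strand). Capitals mark matches to 7 motifs searched on both strands. The letters CCAAT define the CCAAT box, held by 37.4% of 32851 RefSeq promoters of this length. GGGCGG defines the GC box, held by 35.7% of them, and TATAAA the TATA box, held by 13.6%. TGANTCA defines the AP-1 site (7.81% of promoters) and TTCNNNGAA the site of STAT factors (8.30% of promoters). CACGTG defines the E-box (7.15% of promoters), and TGACNNNGC the core of the antioxidant response element, held by 12.4%.
Glul: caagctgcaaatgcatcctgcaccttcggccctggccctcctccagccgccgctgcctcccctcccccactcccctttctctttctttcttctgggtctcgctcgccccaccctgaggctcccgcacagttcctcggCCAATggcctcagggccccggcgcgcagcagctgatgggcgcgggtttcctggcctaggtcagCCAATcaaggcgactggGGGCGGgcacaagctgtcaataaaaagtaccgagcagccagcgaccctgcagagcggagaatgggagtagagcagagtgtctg
Gja1: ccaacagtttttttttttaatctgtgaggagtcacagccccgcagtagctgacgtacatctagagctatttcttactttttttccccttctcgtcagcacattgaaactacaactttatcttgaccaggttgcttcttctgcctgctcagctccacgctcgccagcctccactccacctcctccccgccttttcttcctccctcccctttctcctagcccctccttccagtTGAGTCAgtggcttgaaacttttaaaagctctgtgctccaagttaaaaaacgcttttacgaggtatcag
Gjb6: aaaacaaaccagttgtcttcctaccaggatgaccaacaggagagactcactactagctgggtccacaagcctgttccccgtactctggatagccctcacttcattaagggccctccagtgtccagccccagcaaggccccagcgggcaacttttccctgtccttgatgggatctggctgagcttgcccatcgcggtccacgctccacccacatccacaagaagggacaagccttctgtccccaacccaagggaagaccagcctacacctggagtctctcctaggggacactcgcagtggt
The Glul promoter held 2 CCAAT boxes and 1 GC box and had a GC content of 64.3%. The Gja1 promoter held 1 AP-1 site and had a GC content of 47.7%, and the Gjb6 promoter, at 57.3%, held none of these letters. The median GC content of the 32851 promoters was 52.7%. These matches describe letters only.

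The 16 libraries held 51270831 to 84870650 UMIs, and 136828 nuclei were kept. Astrocytes were 1 cluster of 13940 nuclei, 508 to 1193 per library and 6.50 to 13.5% of the kept nuclei, with a median of 2376 UMIs. Clusters were made without the 7 genes and named from other markers (for astrocytes Aldh1l1, Ntsr2, Fgfr3, Slc39a12, Acsbg1, Gpc5, Etnppl and Cldn10), so class names mean that a cluster was like that type. Library pairs shared 10 to 40 barcodes, against 17.7 to 31.5 by chance. Ch25h itself gave 8 to 12 UMIs per library in Ch25h+/+ Tau-, 16 to 36 in Ch25h+/+ Tau+, 10 to 25 in the Tau- libraries labelled Ch25h-/- and 12 to 30 in the Tau+ libraries labelled Ch25h-/-. It was not lower in the libraries labelled Ch25h-/-, and since the deleted stretch is not given, 3' counts do not check that label; directions of Ch25h loss rest on the labels.

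All 7 genes were carried by astrocytes, but only 5 had their highest class mean there. Slc1a2, Slc1a3, Glul, Aqp4 and Gja1 were highest in astrocytes, while Gjb6 and Slc7a11 were higher in fibroblasts of the meninges and vessels. Class levels are counts per 1e6 UMIs of the class (CPM), as the mean ± SD over libraries with at least 20 nuclei, and are given as description without a test. Free RNA, estimated from barcodes under 100 UMIs, accounted for 0.41 to 1.4% of these genes' UMIs in astrocytes.

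Slc1a2 read 7150 ± 700 CPM in astrocytes (n = 16), 19.2 times the mean of the next class, and the ranges of the 2 classes were apart. That next class was other excitatory neurons at 372 ± 46 CPM (n = 16), followed by oligodendrocyte precursors at 340 ± 26 CPM (n = 16), and these overlapped. The other excitatory neurons were named by markers, so their place in the tissue is not shown. In some of their clusters the class markers averaged below the remaining nuclei, at log2 values of -1.21 to -0.43. CA pyramidal neurons held 178 ± 27 CPM and granule neurons of the dentate gyrus (DG) 130 ± 15 CPM (n = 16 each), with 8.1% and 21% accounted for by free RNA. In oligodendrocytes and microglia free RNA accounted for 83% and 81% of the Slc1a2 UMIs. In inhibitory neurons, at 72 ± 11 CPM, it accounted for 31%.

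Within excitatory neurons Slc1a2 varied by cluster. A cluster led by Rai14 and Col5a1 (5258 nuclei) held 631 CPM, a CA cluster led by Iyd (5975 nuclei) held 316 CPM, and the Fibcd1 cluster of CA neurons (11559 nuclei) held 69.0 CPM. The highest value among these clusters was 874 CPM, in 1787 nuclei, still far under the astrocyte level.

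Slc1a3 read 2426 ± 256 CPM in astrocytes (n = 16), 1179 ± 266 CPM in fibroblasts (n = 15) and 646 ± 271 CPM in ependymal cells (n = 15). Astrocytes stood apart from fibroblasts, and fibroblasts overlapped with ependymal cells. Microglia held 284 ± 62 CPM and oligodendrocyte precursors 246 ± 40 CPM (n = 16 each), which overlapped, with 4.4% and 3.7% from free RNA. In CA, other excitatory and inhibitory neurons the class means of Slc1a3 were 8.8 CPM or less, with single libraries up to 11.9 CPM. Free RNA accounted for 46 to 100% of its UMIs in these classes. DG granule neurons differed from these, at 45.9 ± 8.6 CPM (n = 16) with 12% from free RNA, in a range that overlapped with mural cells at 52 ± 53 CPM (n = 9). After astrocytes, the 2 glutamate transporter genes thus ranked classes differently, with other excitatory neurons second for Slc1a2 and last for Slc1a3.

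Glul read 551 ± 125 CPM in astrocytes (n = 16), and its ranges overlapped with the next class, oligodendrocytes, at 272 ± 62 CPM (n = 16). Fibroblasts followed at 264 ± 76 CPM (n = 15), overlapping with oligodendrocytes, then endothelial cells at 123 ± 63 CPM (n = 6) and microglia at 123 ± 24 CPM (n = 16). Neurons outside the Cajal-Retzius cluster held 4.1 to 12 CPM. Free RNA accounted for 2.7% of the Glul UMIs in oligodendrocytes and 5.3% in microglia.

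Aqp4 read 352 ± 62 CPM in astrocytes (n = 16) and 223 ± 45 CPM in ependymal cells (n = 15), 2 classes whose ranges overlapped. The third, oligodendrocyte precursors, stood apart from ependymal cells at 35 ± 8.5 CPM (n = 16). Every other class had a mean of 32 CPM or less, endothelial cells included.

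The connexin genes parted outside astrocytes. Gja1 read 443 ± 117 CPM in astrocytes (n = 16), 204 ± 44 CPM in ependymal cells and 188 ± 64 CPM in fibroblasts (n = 15 each), with neighbours in this order overlapping. Gjb6 read 309 ± 54 CPM in fibroblasts (n = 15) and 155 ± 51 CPM in astrocytes (n = 16), also overlapping, and 2.8 ± 5.0 CPM in ependymal cells (n = 15), from 4 UMIs in all. Both connexin genes were therefore found in fibroblasts, and Gja1 without Gjb6 in ependymal cells.

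Slc7a11 read 3472 ± 893 CPM in fibroblasts (n = 15), with the lowest library at 2065 CPM, above the highest astrocyte library at 635 CPM. In astrocytes it read 504 ± 84 CPM (n = 16). Ependymal cells held 255 ± 264 CPM (n = 15), from 0 to 789 CPM. Endothelial cells held 143 ± 154 CPM (n = 6), and every other class 17 CPM or less. The fibroblast level came from 1 of 2 clusters: the cluster led by Slc6a13 and Aldh1a2 (2358 nuclei) held 4165 CPM of Slc7a11, and the cluster led by Slc47a1 and Vsx1 (555 nuclei) 78.2 CPM. Slc1a3 parted the same way, at 1339 and 60.3 CPM, whereas Gja1 read 191 and 169 CPM and Gjb6 354 and 165 CPM.

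**Figure D1:**
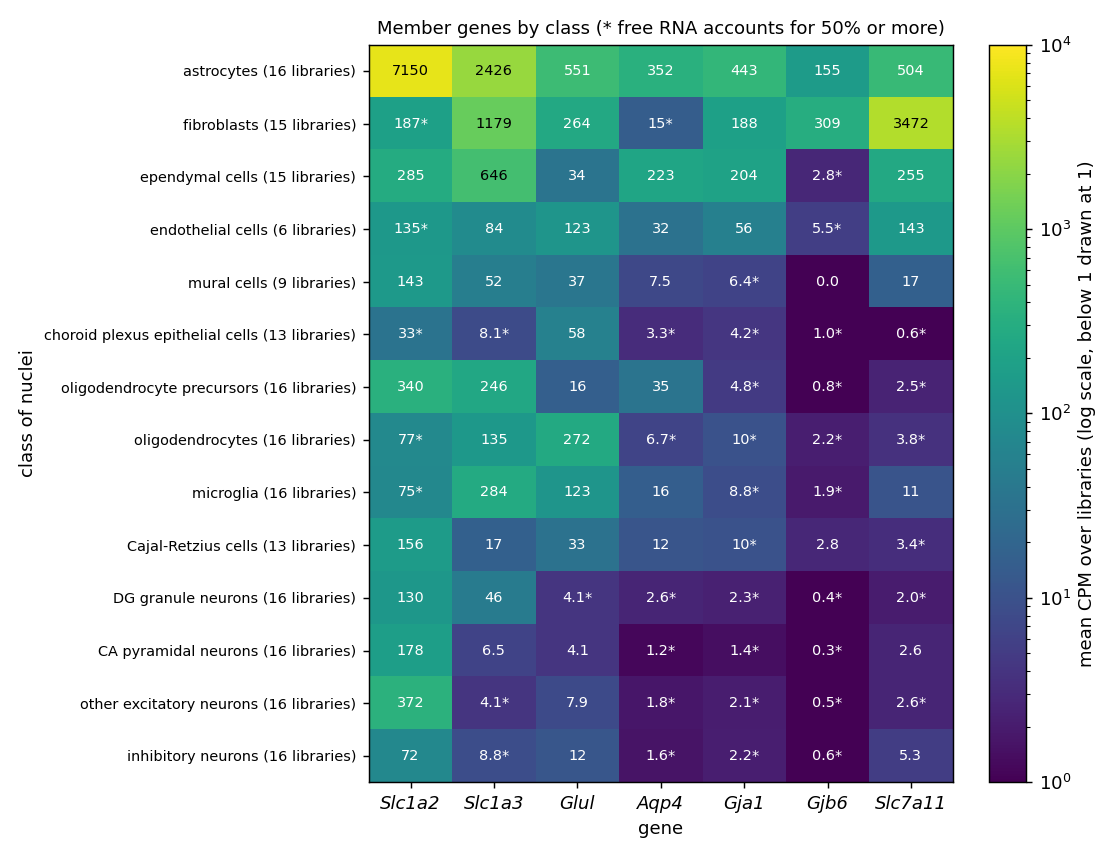
Mean level of each gene (columns) in each class of nuclei (rows), in CPM over the libraries with at least 20 nuclei of the class; colour is on a log scale and an asterisk marks values of which free RNA accounts for 50% or more. Astrocytes hold the highest value in 5 of the 7 columns, and fibroblasts in the Gjb6 and Slc7a11 columns.

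The share of nuclei with a UMI was compared after thinning each nucleus to 1000 UMIs, with nuclei of fewer UMIs left out (13617 of 13940 astrocytes were used). Slc1a2 was detected in 98.5% of astrocyte nuclei (99.6% with all UMIs), Slc1a3 in 85.7% (95.8%) and Glul in 39.7% (64.7%). Gja1 was detected in 34.3% (59.2%), Slc7a11 in 32.6% (52.3%), Aqp4 in 24.8% (44.9%) and Gjb6 in 13.9% (29.6%). DG granule neurons, which serve as the background, had shares of 0.33% for Glul, 0.32% for Aqp4, 0.22% for Gja1, 0.061% for Gjb6 and 0.22% for Slc7a11, at a median depth of 5737 UMIs against 2376 in astrocytes. Slc1a2 (12.6%) and Slc1a3 (4.31%) were higher in granule neurons, where free RNA accounted for 21% and 12% of their UMIs.

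Between groups, none of the 7 genes changed in astrocytes at an adjusted p under 0.05 in any of 7 comparisons (edgeR's quasi-likelihood test on UMIs summed per library, 12805 genes tested). The comparisons are Tau+ against Tau- in Ch25h+/+, in Ch25h-/- and over both genotypes (the tau effect), Ch25h-/- against Ch25h+/+ in Tau+, in Tau- and over both (Ch25h loss), and by how much the tau effect of Ch25h-/- exceeds that of Ch25h+/+ (the interaction). Of all genes, edgeR called 0.562% for tau in Ch25h+/+, 0.039% for tau in Ch25h-/- and 3.2% for tau over both genotypes. DESeq2 called 1 member, Glul, over both genotypes and 0 elsewhere, while edgeR's unadjusted p was under 0.05 for 1, 2 and 3 members in these 3 comparisons and for 0 in the other 4. The unadjusted p was under 0.05 for 12.3%, 7.95% and 14.6% of all genes in those 3 comparisons, and DESeq2 called 517 of 12805 genes over both genotypes. For tau over both genotypes 4 members had negative and 3 positive fold changes, with a median log2 fold change of -0.20 beside -0.00 over all genes tested. In the following, levels are CPM scaled by TMM, listed for replicates 1 to 4 of each group, and fold changes are log2 with a standard error (SE) and a 95% confidence interval. Overlap between groups is given as description only, since the share of all genes whose groups stand apart is not given here.

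Slc1a2, the main glutamate transporter gene, was lower on average in Tau+ astrocytes. It read 6815, 7466, 7508 and 8743 CPM in Ch25h+/+ Tau- and 5774, 7175, 6294 and 7253 CPM in Ch25h+/+ Tau+. In Ch25h-/- it read 7549, 6856, 8608 and 8202 CPM without tau and 6386, 7157, 7098 and 6570 CPM with tau. The groups overlapped in both genotypes, with the 2 highest libraries of each genotype in Tau-. The log2 fold change over both genotypes was -0.20 (SE 0.07, interval -0.34 to -0.06), and edgeR's adjusted p was 0.116. Within each genotype it was also -0.20, with adjusted p = 0.383 in Ch25h+/+ and 0.626 in Ch25h-/-.

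Slc1a3, the second glutamate transporter gene, showed no such difference. Its levels were 2178, 2090, 2638 and 2820 CPM in Ch25h+/+ Tau- and 2366, 2204, 2302 and 2493 CPM in Ch25h+/+ Tau+. The Ch25h-/- libraries read 2221, 2260, 2376 and 2765 CPM without tau and 2291, 2456, 2579 and 3107 CPM with tau. The groups overlapped widely, and the tau effect over both genotypes was 0.03 (SE 0.08, interval -0.13 to 0.19) with an adjusted p of 0.923 by edgeR.

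Glul, which encodes glutamine synthetase, had the lowest adjusted p of the 7 for tau in Ch25h-/- and over both genotypes, while Slc1a2 had the lowest in Ch25h+/+. It read 677, 629, 490 and 765 CPM in Ch25h+/+ Tau- and 307, 510, 628 and 582 CPM in Ch25h+/+ Tau+, which overlapped. In Ch25h-/- it read 638, 620, 680 and 677 CPM without tau and 437, 540, 419 and 319 CPM with tau, and every Tau+ library was under every Tau- library. The group means were 654 ± 29 and 429 ± 91 CPM (SD, n = 4 each) in Ch25h-/-. The log2 fold change was -0.34 (SE 0.19, interval -0.74 to 0.07, adjusted p = 0.518 by edgeR) in Ch25h+/+ and -0.61 (SE 0.19, interval -1.01 to -0.20, adjusted p = 0.283) in Ch25h-/-. Without replicate 1 of Ch25h+/+ Tau+ the Glul value in Ch25h+/+ was -0.16. Over both genotypes it was -0.47 (SE 0.14, interval -0.76 to -0.18), at an adjusted p of 0.0722. DESeq2 gave the same size and an adjusted p of 0.0224, so Glul was on either side of the threshold depending on the tool. The share of thinned astrocyte nuclei with a Glul UMI moved alike: 26.4 to 40.3% in Ch25h-/- Tau+ libraries against 43.1 to 47.3% in Ch25h-/- Tau-, and 36.4% ± 7.6 against 44.5% ± 6.2 (SD, n = 4) in Ch25h+/+.

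Aqp4, the water channel gene, had higher means in Tau+. It read 319, 263, 360 and 329 CPM in Ch25h+/+ Tau- and 434, 366, 383 and 391 CPM in Ch25h+/+ Tau+, so that these groups did not overlap. The Ch25h-/- libraries read 320, 225, 331 and 451 CPM without tau and 339, 340, 381 and 431 CPM with tau, and here the highest library was a Tau- one. The tau effect was 0.31 (SE 0.15, adjusted p = 0.425 by edgeR) in Ch25h+/+ and 0.16 (SE 0.15, adjusted p = 0.876) in Ch25h-/-. The Aqp4 value in Ch25h-/- ranged from 0.02 without replicate 2 of Tau- to 0.35 without replicate 4 of Tau-. Over both genotypes it was 0.24 (SE 0.11, interval 0.01 to 0.46, adjusted p = 0.306).

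Gja1 (connexin 43) read 385, 420, 665 and 644 CPM in Ch25h+/+ Tau- and 302, 465, 415 and 495 CPM in Ch25h+/+ Tau+. The Ch25h-/- values were 397, 321, 529 and 640 CPM without tau and 271, 320, 519 and 379 CPM with tau. The spread within each group was wide and all groups overlapped. Its tau effect over both genotypes was -0.34 (SE 0.18, interval -0.73 to 0.05, adjusted p = 0.419 by edgeR).

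Gjb6 (connexin 30) read 149, 134, 148 and 341 CPM in Ch25h+/+ Tau- and 94.2, 123, 158 and 154 CPM in Ch25h+/+ Tau+. In Ch25h-/- it read 138, 128, 157 and 217 CPM without tau and 130, 126, 151 and 159 CPM with tau. A single library, Ch25h+/+ Tau- replicate 4, stood above every other. The tau effect of Gjb6 was -0.37 (SE 0.19, interval -0.79 to 0.05, adjusted p = 0.414 by edgeR) over both genotypes. Without that library it was -0.16 (SE 0.12, adjusted p = 0.695), and in Ch25h+/+ it went from -0.55 to -0.12.

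Slc7a11, the cystine-glutamate exchanger gene, read 543, 368, 616 and 448 CPM in Ch25h+/+ Tau- and 546, 621, 473 and 628 CPM in Ch25h+/+ Tau+. Ch25h-/- libraries read 391, 518, 453 and 459 CPM without tau and 489, 485, 496 and 583 CPM with tau. Means were higher in Tau+ in both genotypes, and the libraries overlapped. The tau effect over both genotypes was 0.19 (SE 0.10, interval -0.01 to 0.38, adjusted p = 0.387 by edgeR).

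**Figure D2:**
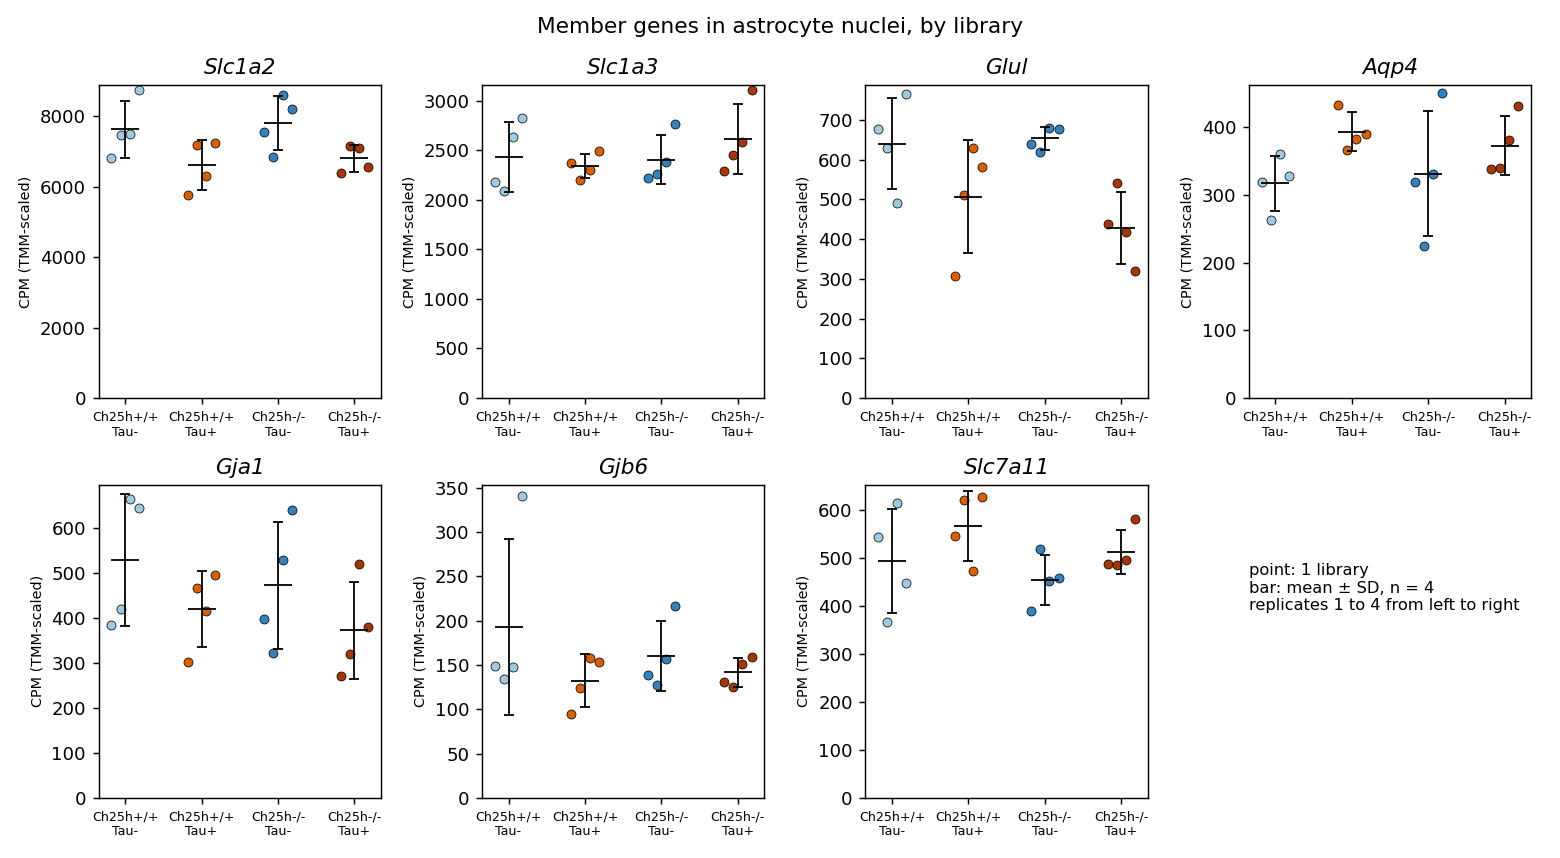
TMM-scaled CPM of each gene in astrocyte nuclei, a panel per gene; points are libraries (replicates 1 to 4 from left to right in each group) and bars the mean ± SD, n = 4. Glul does not overlap between Tau- and Tau+ in Ch25h-/-, Aqp4 does not overlap between them in Ch25h+/+, and 1 Gjb6 library stands at 341 CPM. Neither Glul nor Aqp4 was called by edgeR in these comparisons, and the share of all genes apart in this way is not given.

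Ch25h loss left every one of the 7 genes uncalled, with edgeR calling 0% of 12805 genes for Ch25h loss in Tau+, in Tau-, over both tau states and for the interaction (401, 428, 370 and 465 genes at an unadjusted p under 0.05, none a member). Over both tau states the intervals were -0.10 to 0.17 for Slc1a2, -0.09 to 0.23 for Slc1a3, -0.39 to 0.18 for Glul and -0.23 to 0.22 for Aqp4. They were -0.56 to 0.22 for Gja1, -0.50 to 0.33 for Gjb6 and -0.33 to 0.07 for Slc7a11. The glutamate transporter genes were thus bounded most tightly and the connexin genes least. The interaction for Glul was -0.27 (SE 0.27, interval -0.84 to 0.30, adjusted p = 0.9999 by edgeR), so the larger Glul difference in Ch25h-/- was not shown to differ from that in Ch25h+/+.

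**Figure D3:**
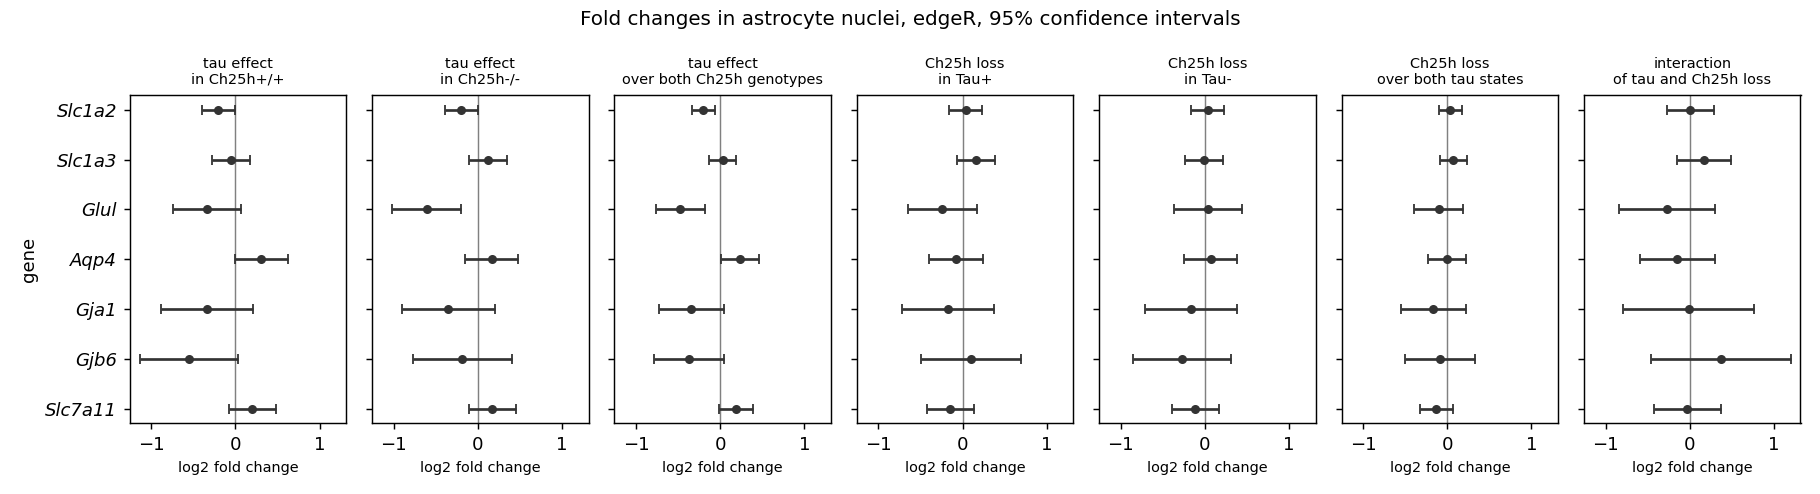
Log2 fold changes of the 7 genes in astrocytes (points) with 95% confidence intervals (bars), a panel per comparison, from edgeR. In the third panel the intervals of Slc1a2, Glul and Aqp4 lie to 1 side of 0, and none of these passes the adjusted threshold.

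The astrocytes of these libraries did differ by tau in other genes. Gfap, the filament gene raised in reactive astrocytes, was higher over both genotypes by 1.61 (SE 0.24, adjusted p = 0.00426 by edgeR), Serpina3n by 4.04 (adjusted p = 0.00152) and C4b by 1.70 (adjusted p = 0.00773). The summed level of the 8 astrocyte markers moved with tau as well: 8950 to 11475 CPM in Ch25h+/+ Tau+ against 10737 to 12379 in Ch25h+/+ Tau-, and 9892 to 11570 in Ch25h-/- Tau+ against 11794 to 13310 in Ch25h-/- Tau-. The 8 CA neuron markers, all with UMIs, summed to 123 to 186 CPM in Tau+ astrocytes and 85.6 to 122 CPM in Tau- astrocytes. The 6 DG granule neuron markers summed to 1211 to 1658 CPM in Ch25h+/+ Tau+ against 1153 to 1196 CPM in Ch25h+/+ Tau-, and to 1178 to 1499 against 1112 to 1242 CPM in Ch25h-/-. That sum stood far above the one of the CA neuron markers, and how much of it came from granule neurons or from astrocytes themselves was not tested. The 5 Cajal-Retzius markers were apart in both genotypes, at 21.1 to 24.7 CPM in Tau+ against 13.9 to 18.4 CPM in Tau- in Ch25h+/+, and at 17.0 CPM or more against 14.6 CPM or less in Ch25h-/-. The 7 fibroblast markers, all with UMIs, were apart in Ch25h-/-, at 149 to 163 CPM in Tau+ against 167 to 204 CPM in Tau-, and overlapped in Ch25h+/+, at 109 to 175 against 160.1 to 192 CPM. Median UMIs per astrocyte nucleus were apart in Ch25h+/+, at 2256 to 2886 in Tau+ and 2009 to 2178 in Tau- libraries, and overlapped in Ch25h-/-, at 2104 to 2886.5 in Tau+ and 1964 to 2804 in Tau-. The part of these in the Slc1a2 and Glul values was not tested.

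Libraries also parted along a direction that no label gives. The first principal component of the astrocyte sums, with 35.3% of the variance, put replicates 1 and 2 of every group on 1 side and replicates 3 and 4 on the other. Barcodes under 100 UMIs held 1745236 to 3693394 UMIs per library in replicates 1 and 2. In replicates 3 and 4 they held 4004191 to 4839087. The part of this free RNA in the split was not tested. Gja1 read 360 ± 67 CPM on the first side and 536 ± 107 CPM on the second (SD, n = 8 each), Gjb6 128 ± 16 and 186 ± 67 CPM, and Slc1a3 2258 ± 114 and 2635 ± 261 CPM. Aqp4 read 326 ± 63 and 382 ± 44 CPM, Slc1a2 6897 ± 589 and 7534 ± 910 CPM, Glul 545 ± 124 and 570.0 ± 150 CPM, and Slc7a11 495 ± 83 and 519 ± 77 CPM. The ranges of the sides overlapped for all 7 genes. With the side as a term, no member was called for tau by edgeR: Slc1a2 had an adjusted p of 0.051, Gja1 0.083 and Glul 0.092. Each group holds 2 libraries of each side, so this split does not coincide with genotype or tau.

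The related genes of each pathway were read in the same fit, from lists chosen for this tissue. In glutamate and glutamine handling, 17 of 18 genes were tested, 2 were higher and 0 lower in Tau+ over both genotypes (3.2% of all genes were called), 9 had an unadjusted p under 0.05 (14.6% of all genes), and the median log2 fold change was -0.10, beside -0.00 over all genes. Slc38a1, a glutamine transporter gene, read 74.6, 58.9, 49.1 and 44.4 CPM in Ch25h+/+ Tau- and 158, 135, 137 and 165 CPM in Ch25h+/+ Tau+. It read 100.3, 69.8, 61.2 and 49.5 CPM in Ch25h-/- Tau- and 100.2, 129, 81.3 and 158 CPM in Ch25h-/- Tau+. The groups did not overlap in Ch25h+/+ and did in Ch25h-/-. Slc38a1 rose by 1.41 (SE 0.22, adjusted p = 0.00726 by edgeR) in Ch25h+/+ and by 1.08 (SE 0.15, adjusted p = 0.00134) over both genotypes, with 6.1% of its UMIs from free RNA. The Slc38a1 call in Ch25h+/+ was lost with the 7 members among the clustering genes (1.19, adjusted p = 0.0589 by edgeR) and among replicates 3 and 4 alone (1.69, adjusted p = 0.0867). Its difference in Ch25h-/- was 0.76 (SE 0.22, adjusted p = 0.197), and the interaction was -0.65 (SE 0.31), at an adjusted p of 0.9999. Grm5, a glutamate receptor gene, rose by 0.93 (SE 0.22, adjusted p = 0.0345 by edgeR) over both genotypes, but free RNA accounted for 42% of its UMIs. The Grm5 call remained in only 5 of 16 fits with 1 library left out, those without replicate 3 of Ch25h+/+ Tau+, replicates 1 or 2 of Ch25h+/+ Tau-, replicate 3 of Ch25h-/- Tau+ or replicate 1 of Ch25h-/- Tau-. With free RNA subtracted the Grm5 value was 1.67 (SE 0.40, adjusted p = 0.0437 by edgeR). The part of the neuronal markers in the Grm5 and Slc38a1 values was not tested.

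In the water, potassium and endfoot list, 17 of 19 genes were tested. For tau over both genotypes Sntb1, a syntrophin gene of the dystrophin complex, was the 1 called (3.2% of all genes were called). An unadjusted p under 0.05 was found for 4 of the list (14.6% of all genes). Sntb1 read 43.6, 42.8, 40.3 and 44.0 CPM in Ch25h+/+ Tau- and 90.1, 82.5, 48.2 and 80.6 CPM in Ch25h+/+ Tau+. Ch25h-/- libraries read 50.5, 53.6, 58.6 and 54.7 CPM without tau and 57.5, 66.7, 57.7 and 87.9 CPM with tau. Its groups did not overlap in Ch25h+/+ and did in Ch25h-/-. Sntb1 rose by 0.56 (SE 0.12, adjusted p = 0.0106 by edgeR) over both genotypes, and by 0.83 (SE 0.17, adjusted p = 0.0243) in Ch25h+/+. The call over both genotypes was lost among replicates 3 and 4 alone (0.48, adjusted p = 0.335 by edgeR). The Ch25h+/+ call was lost without replicate 1, 2 or 4 of Tau+ or replicate 2, 3 or 4 of Tau-, with adjusted p between 0.0603 and 0.125, and also with the libraries of the 2 groups only (0.0765) and among replicates 3 and 4 alone (0.415). For Sntb1, too, the part of the neuronal markers was not tested. The list's median was -0.07, and its gene nearest that median was Kcnj10, the potassium channel gene, at -0.07 (SE 0.13, adjusted p = 0.885 by edgeR).

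Of the connexins, pannexins and junction partners only 4 of 14 passed the filter on low counts. For tau over both genotypes none of these was called, at 0 with an unadjusted p under 0.05. Of all genes 3.2% were called in that comparison, and 14.6% had an unadjusted p under 0.05. In the same comparison 12 of 15 genes of cystine exchange and glutathione were tested, none was called, 1 had an unadjusted p under 0.05, and the median was 0.06. Gsr, glutathione reductase, lay nearest that median at 0.05 (SE 0.15, adjusted p = 0.941 by edgeR).

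A comparison within libraries set the 4521 astrocyte nuclei with a Gfap UMI against the 9419 without one. It rests on Gfap, which is not a member, and uses each library as its own block, and edgeR called 15.7% of 9555 genes and 2 of the 7 members. Nuclei with a Gfap UMI made up 46.7% ± 11.7 of astrocytes in Ch25h+/+ Tau+ and 39.2% ± 7.4 in Ch25h-/- Tau+, against 21.3% ± 1.8 in Ch25h+/+ Tau- and 23.4% ± 4.7 in Ch25h-/- Tau- (SD, n = 4 each). Their median depth was 2675 UMIs against 2246 without. With each nucleus thinned to 1000 UMIs, which left out 56 to 104 shallower nuclei per group, the shares were 28.9% ± 11 and 22.5% ± 4.3 in the Tau+ groups against 11.5% ± 2.0 and 11.8% ± 2.3 in the Tau- groups, in the same order, and the Tau- and Tau+ libraries were apart in both genotypes. Thinned in the same way, 0.81% of oligodendrocytes and 0.62% of microglia had a Gfap UMI (median depths of 1558 and 1448 UMIs, 2376 in astrocytes; unthinned 1.2% and 1.0%), and free RNA accounted for 1.2% of the Gfap UMIs in astrocytes.

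Aqp4 was higher in nuclei with a Gfap UMI in 16 of 16 libraries. It read 522 ± 80 CPM with and 269 ± 48 CPM without (SD, n = 16), a log2 difference of 0.96 (SE 0.04, adjusted p = 1.22e-28 by edgeR). The libraries ranged from 472 to 575 CPM with and from 205 to 320 CPM without in Ch25h+/+ Tau-, and from 498 to 633 and from 246 to 291 CPM in Ch25h+/+ Tau+. In Ch25h-/- they ranged from 362 to 624 CPM with and from 194 to 391 CPM without in Tau-, and from 455 to 631 and from 226 to 287 CPM in Tau+. Only in Ch25h-/- Tau- did the ranges of the 2 kinds of nuclei overlap. Without a Gfap UMI the group means of Aqp4 were 264 ± 49 CPM in Ch25h+/+ Tau-, 263 ± 21 in Ch25h+/+ Tau+, 292 ± 80 in Ch25h-/- Tau- and 256 ± 33 in Ch25h-/- Tau+. With a Gfap UMI they were 521 ± 46, 547 ± 59, 471 ± 116 and 551 ± 87 CPM in the same order (SD, n = 4 each).

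Gjb6 was lower in nuclei with a Gfap UMI in 16 of 16 libraries, at 140 ± 55 against 171 ± 57 CPM (SD, n = 16), a log2 difference of -0.29 (SE 0.05, adjusted p = 2.08e-06 by edgeR). Gja1, its partner connexin, did not pass, at 0.01 (SE 0.04, adjusted p = 0.949). The other 4 were not called either: Glul at -0.14 (adjusted p = 0.166 by edgeR; called without replicate 3 of Ch25h+/+ Tau-, at -0.16, adjusted p = 0.0317), Slc7a11 at -0.07 (0.200), Slc1a2 at -0.04 (0.333) and Slc1a3 at -0.03 (0.593). With nuclei thinned to 1000 UMIs, Glul (-0.20, adjusted p = 0.0109 by edgeR) and Slc1a3 (-0.12, adjusted p = 0.0209) also passed, where 9.67% of 6452 genes were called.

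The difference by Gfap depended on tau for Glul and Slc1a2, in a test chosen after seeing the data, in which edgeR called 1.3% of 9555 genes. Glul read 467 CPM with and 580 CPM without a Gfap UMI in Ch25h+/+ Tau+, and 396 and 482 CPM in Ch25h-/- Tau+. In Tau- the pairs were 660 and 654 CPM in Ch25h+/+ and 687 and 660 CPM in Ch25h-/-. Glul was thus lower in nuclei with Gfap in the means of both Tau+ groups, and about equal in those of both Tau- groups. The difference in Tau+ was below that in Tau- by a log2 value of -0.37 (SE 0.07, adjusted p = 0.00120 by edgeR). Without each library in turn it ranged from -0.41 to -0.34, with adjusted p of at most 0.00569, but with nuclei thinned to 1000 UMIs it was -0.25 (SE 0.11, adjusted p = 0.542). Slc1a2 read 6529 CPM with and 7056 CPM without in Ch25h+/+ Tau+, 6659 and 7274 CPM in Ch25h-/- Tau+, 7868 and 7799 CPM in Ch25h+/+ Tau-, and 8279 and 7834 CPM in Ch25h-/- Tau-. Its difference of -0.16 (SE 0.04, adjusted p = 0.0245 by edgeR) no longer passed when replicate 1 of Ch25h+/+ Tau+ (adjusted p = 0.0588), replicate 4 of Ch25h+/+ Tau- (0.0719) or replicate 3 (0.0670) or 4 (0.0531) of Ch25h-/- Tau- was left out, or with thinned nuclei (-0.12, adjusted p = 0.472). Slc1a3 was called instead with thinned nuclei, at 0.26 (SE 0.07, adjusted p = 0.0327), having been 0.11 (adjusted p = 0.364) with all UMIs. For Aqp4 the difference in Tau+ exceeded that in Tau- by 0.24 (SE 0.07, adjusted p = 0.0882 by edgeR), and it was called only when replicate 2 of Ch25h+/+ Tau- was left out (0.29, adjusted p = 0.0288).

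**Figure D4:**
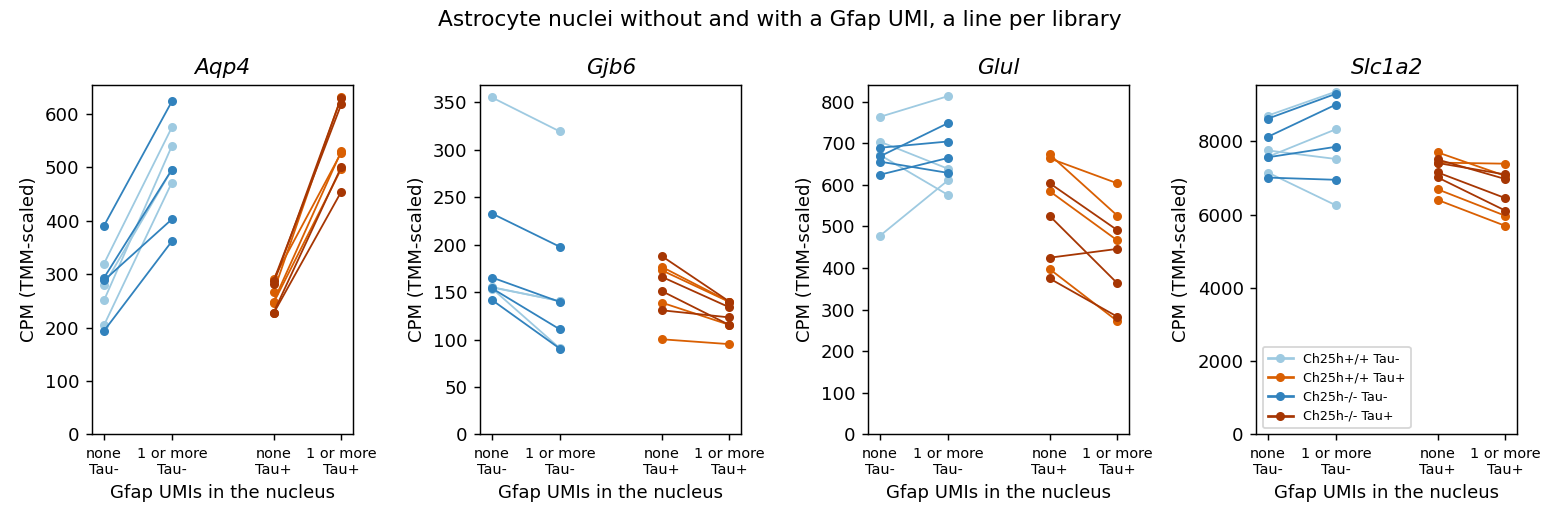
TMM-scaled CPM of Aqp4, Gjb6, Glul and Slc1a2 in astrocyte nuclei without and with a Gfap UMI; each line joins the 2 values of 1 library, Tau- on the left and Tau+ on the right of each panel. Aqp4 rises and Gjb6 falls along all 16 lines, and Glul falls along 7 of 8 lines in Tau+ and 3 of 8 in Tau-.

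Outside astrocytes, 7 classes had enough nuclei in every library for a test, in which 38 of 49 pairs of class and gene passed the filter on low counts. Gjb6 was tested in none of them. For tau over both genotypes edgeR called 1 of these pairs, Glul in microglia, where it called 7.05% of 8701 genes. The shares of genes called in the other classes were 0.0605% in CA pyramidal neurons, 0.0729% in DG granule neurons, 0.0333% in inhibitory neurons, 0.0253% in other excitatory neurons, 0.268% in oligodendrocytes and 0.234% in oligodendrocyte precursors. In the other 6 comparisons edgeR called 0 pairs, as did DESeq2, and 1 to 7 pairs had an unadjusted p under 0.05. In these classes and 6 comparisons, 1.92% to 14.2% of the genes tested had one. The shares of genes called by edgeR for tau in Ch25h+/+ were 1.75% in microglia, 0.0181% in CA neurons, 0.0265% in granule neurons, 0.02% in inhibitory neurons, 0.0253% in other excitatory neurons, 0.00836% in oligodendrocytes and 0.0106% in precursors. For tau in Ch25h-/- they were 0.678% in microglia, 0.157% in CA neurons, 0.0928% in granule neurons, 0.02% in inhibitory neurons, 0.0253% in other excitatory neurons, 0.00836% in oligodendrocytes and 0.0958% in precursors. For Ch25h loss the highest share in these classes was 0.0242%, in CA neurons over both tau states, and the interaction called 0%. For Ch25h loss in a single tau state the shares were 0.0181% (Tau+) and 0.00605% (Tau-) in CA neurons, 0.00663% (each) in granule neurons, 0.00666% (Tau-) in inhibitory neurons and 0.00632% (Tau+) in other excitatory neurons, and 0% elsewhere. Over both tau states they were 0.00663% in granule neurons, 0.0133% in inhibitory neurons, 0.0126% in other excitatory neurons, 0.0115% in microglia, 0.0106% in precursors and 0% in oligodendrocytes. Calls were thus rare in every class but microglia.

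Glul in microglia read 163, 130, 104 and 160 CPM in Ch25h+/+ Tau- and 102, 113, 138 and 120 CPM in Ch25h+/+ Tau+, from 34 to 103 UMIs per library. In Ch25h-/- it read 141, 162, 156 and 145 CPM without tau and 111, 84.5, 121 and 96.7 CPM with tau. The groups overlapped in Ch25h+/+ and were apart in Ch25h-/-, as in the astrocytes of the same libraries. This is description, since the share of all genes apart in this way is not given. For tau over both genotypes 19.7% of microglial genes had an unadjusted p under 0.05 by edgeR. Glul fell by 0.40 on the log2 scale (SE 0.11, interval -0.64 to -0.17, adjusted p = 0.0308 by edgeR) over both genotypes, and 5.3% of its UMIs were accounted for by free RNA. After free RNA was subtracted the value was -0.42 (adjusted p = 0.0298). The 8 astrocyte markers, all with UMIs in microglia, moved with it: they summed to 53.6 to 83.7 CPM in Ch25h+/+ Tau+ and 54.3 to 90.7 CPM in Ch25h-/- Tau+, against 86.1 to 131 CPM in Ch25h+/+ Tau- and 57.1 to 140 CPM in Ch25h-/- Tau-. The CA neuron markers in microglia summed to 393 to 519 CPM in Ch25h+/+ Tau+ against 527 to 568 CPM in Ch25h+/+ Tau-, and overlapped in Ch25h-/- (376 to 509 and 439 to 542 CPM). The 7 microglial markers ranged from 5986 to 9323 CPM in Ch25h+/+ Tau+ against 9181 to 10458 CPM in Ch25h+/+ Tau-, and from 6683 to 9895 CPM in Ch25h-/- Tau+ against 8371 to 10370 CPM in Ch25h-/- Tau-. In the microglial cluster all 7 markers of border-associated macrophages also exceeded the remaining nuclei 2-fold, and no cluster took that name. In Ch25h+/+ they summed to 291 to 874 CPM in Tau+ (mean 525) and 143 to 1332 CPM in Tau- (mean 543). In Ch25h-/- they summed to 74.9 to 422 CPM in Tau+ (mean 237) and 28.9 to 1082 CPM in Tau- (mean 682). The part of these markers in the Glul value was not tested. The call was lost in 8 of 16 fits without 1 library, with adjusted p between 0.0508 and 0.0814: those without replicate 1, 2 or 4 of Ch25h+/+ Tau+, 1 or 4 of Ch25h+/+ Tau-, 2 or 4 of Ch25h-/- Tau+, or 2 of Ch25h-/- Tau-. It was also lost among replicates 3 and 4 alone (-0.24, adjusted p = 0.722).

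**Figure D5:**
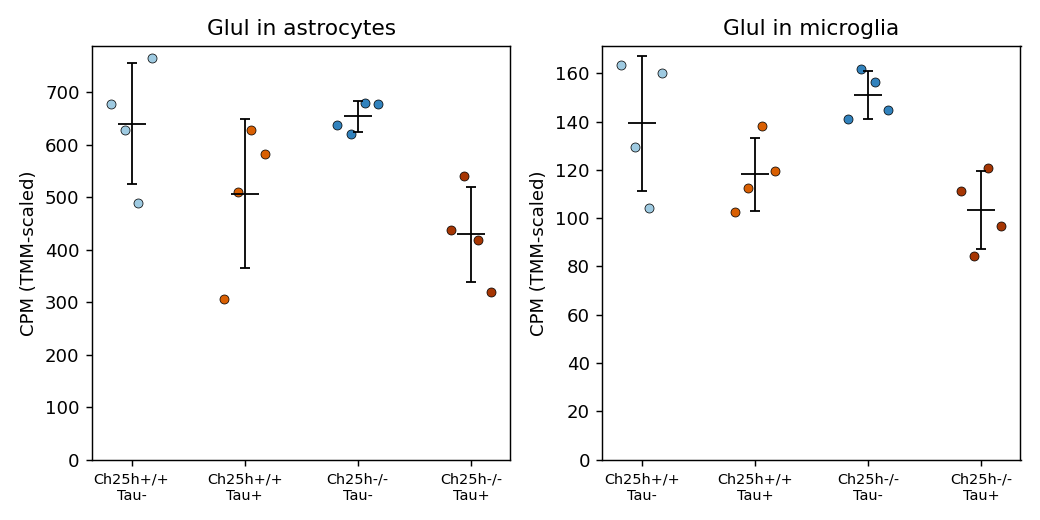
TMM-scaled CPM of Glul in astrocytes (left) and microglia (right); points are libraries and bars the mean ± SD, n = 4. In both classes the Ch25h-/- Tau+ points lie under all Ch25h-/- Tau- points, and in Ch25h+/+ the 2 tau states overlap. This is description, without the share of all genes apart in this way.

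The other pairs did not pass. Slc1a3 in microglia, in plain CPM, read 248, 281, 277 and 444 in Ch25h+/+ Tau-, 206, 223, 209 and 226 in Ch25h+/+ Tau+, 290, 275, 328 and 340 in Ch25h-/- Tau- and 309, 246, 285 and 350 in Ch25h-/- Tau+. In these values the Ch25h+/+ Tau+ libraries were the lowest of all 16, the highest of them at 226 and the next library of another group at 246. This order is description: the values are not scaled by TMM, and the share of microglial genes with such an order is not given. The tau effect in Ch25h+/+ was -0.54 (SE 0.15, adjusted p = 0.0704 by edgeR), Ch25h loss in Tau+ was 0.47 (SE 0.15, interval 0.16 to 0.77, unadjusted p = 0.00417, not passing after adjustment), and these 2 comparisons share the Ch25h+/+ Tau+ libraries. The interaction was 0.47 (SE 0.22, interval 0.03 to 0.91), at an adjusted p of 0.9996 by edgeR. Slc1a2 in microglia had a tau effect of -0.50 (SE 0.17, adjusted p = 0.0746 by edgeR) and in oligodendrocytes of -0.48 (SE 0.12, adjusted p = 0.127), classes in which free RNA accounted for 81% and 83% of its UMIs. Glul in oligodendrocytes had a tau effect of -0.30 (SE 0.12, interval -0.54 to -0.05, adjusted p = 0.368 by edgeR).

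Fibroblasts had under 20 nuclei in 1 library and were not tested. In them Slc7a11 ranged from 2805 to 3775 CPM in Ch25h+/+ Tau+, 3486 to 4319 in Ch25h+/+ Tau-, 2746 to 6094 in Ch25h-/- Tau+ and 2065 to 3415 in the 3 usable Ch25h-/- Tau- libraries. Gjb6 there ranged from 268 to 318, 283 to 370, 203 to 403 and 299 to 392 CPM in the same order. For Gjb6 all 4 ranges overlapped. The groups' shares of the 2 fibroblast clusters, which differ in Slc7a11, were not compared, so no order of the groups is read from its values.

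Across the 16 libraries, members varied together to different degrees in astrocytes, given as Pearson's r of log2(CPM + 1) and as a description, since the libraries differ in depth, tau and the unlabelled side. The highest pair was Slc1a2 with Gja1 at 0.75, followed by Slc1a2 with Gjb6, Slc1a2 with Glul and Gja1 with Gjb6, each at 0.69. Glul with Aqp4 was the lowest at -0.48. Among 6605 genes averaging 50 UMIs or more in a library, the 3 most like Slc1a2 were Nudt3 (0.90), Atp5o (0.89) and Cadm1 (0.88), and for Slc1a3 they were Lars (0.88), Atp6v1a (0.86) and Sf3b3 (0.85). For Glul they were Htra1 (0.91), Zfp516 (0.88) and Arhgap26 (0.88), and for Aqp4 Elmsan1 (0.80), Maml2 (0.79) and Atp6v1a (0.79). Gja1 was most like Arl6ip1 (0.96), Cst3 (0.95) and Tmem59 (0.94), Gjb6 like Rin2 (0.96), Kantr (0.92) and Ezr (0.92), and Slc7a11 like Pcnx3 (0.82), Pdgfc (0.80) and Hgf (0.79). No member was among the 3 genes most like another member. The single high Gjb6 library, Ch25h+/+ Tau- replicate 4, enters every r of Gjb6, and r without it is not given.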

How the data were processed

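Single-nucleus RNA of 16 hippocampal libraries, 4 per group, was read from the matrices the authors deposited, which hold UMI counts per gene and barcode, not normalized. Per the labels' protocols, a 10x Genomics 3' kit was used. The submitters' processing notes name Cell Ranger 3.1.0 and the build mm10, and the matrices were written by version 4, per the file headers. Whether intronic reads were counted is not given in the sources used here.

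Of 33161829 barcodes, 147873 passed the rule for nuclei, and Scrublet's highest scores (0.8% per 1000 nuclei, 11045 nuclei) were removed as doublets. Nuclei were clustered with scanpy 1.11.5 (3000 variable genes without the 7 members, 50 components, 20 neighbours, Leiden resolution 1). A cluster was named where at least 3 markers of a class exceeded the remaining nuclei 2-fold, unless over 50% of its nuclei scored as doublets, its leading genes went against the name, or it was shallow with no marker among its leading genes. By these rules 18 of 48 clusters (11935 nuclei) stayed unnamed. Counts were summed per library and class (astrocytes 1292900 to 3049330 UMIs per library) and tested with edgeR 4.0.16 in R 4.3.3 (TMM, filterByExpr, robust quasi-likelihood, 1 mean per group, two-sided, Benjamini-Hochberg over all genes of a class and comparison, called at an adjusted p under 0.05). No other covariate was used. The fit was tested on simulated data for the tau effect in Ch25h+/+: of 200 genes changed among 12606, it recovered 81% at a log2 change of 1 and 99% at 2. Both sizes exceed the tau effects given above for the 7 genes in astrocytes, and recovery at smaller changes is not given. Alternatives were DESeq2 1.42.0, other filters, doublets kept, members among the clustering genes, free RNA subtracted, the unlabelled split and each library left out.

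All members were named. Related genes were named where called and averaging 10 or more UMIs in a library (up to 3 in each direction), otherwise the gene nearest its list's median, and for each member the 3 genes with the highest r. The members, lists and tests were chosen with earlier results of these data known. The replicate numbers follow the order of deposit and pair no libraries.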

Additional observations from a re-analysis of the deposited data

Results flagged for a closer look

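Gjb6 in astrocytes read 341.3 CPM in Ch25h+/+ Tau- replicate 4, against 134 to 149 CPM in the other 3 libraries of its group. Slc7a11 read 582.6 CPM in Ch25h-/- Tau+ replicate 4, against 485 to 496 CPM in the other 3. Both stood far from the rest of their group, and chance alone marks about 1 in 20 of the 28 groups read this way. The Slc7a11 value lay under the highest Slc7a11 library of the series, at 628 CPM, so it stood out only within its own group.

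Glul and Slc1a2 differed between tau states in how they differed by Gfap. The log2 difference between nuclei with and without a Gfap UMI was lower in Tau+ than in Tau- by a value of -0.37 for Glul (adjusted p = 0.00120 by edgeR) and -0.16 for Slc1a2 (adjusted p = 0.0245). Neither call held with nuclei thinned to 1000 UMIs, and the cause was not tested.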

How the results depend on the processing

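Of 1326 values under other settings (the 7 genes in astrocytes and Glul in microglia, without the fits by Gfap), 1244 kept their direction and side of the threshold, 10 lost a call, 4 gained one, 0 reversed a call and 68 changed sign or moved without being called. None of the 7 genes was called in astrocytes as reported, so most of these values had no call to lose. All 10 lost calls were those of Glul in microglia for tau over both genotypes, the 1 value called as reported. Of 242 counts of called members, 228 stayed within 1.5 times. The counts for the 7 comparisons in astrocytes were 0 as reported and could only stay or rise. In astrocytes, members called for tau over both genotypes numbered 1 under DESeq2 (Glul, adjusted p = 0.0224), 1 among replicates 1 and 2 alone (Aqp4 at 0.40, adjusted p = 0.0358 by edgeR), and 0 to 1 with a library left out (Glul, without replicate 3 of Ch25h+/+ Tau+, adjusted p = 0.0375, or of Ch25h+/+ Tau-, 0.0465). In other classes, with no filter on low counts, edgeR called 1 for tau in Ch25h+/+ (Slc1a3 in microglia, adjusted p = 0.0291), 1 in Ch25h-/- (Slc1a2 in microglia, 0.0471) and 2 over both genotypes (Slc1a2 in microglia, 0.0416, and in oligodendrocytes, 0.0266), while Glul in microglia was lost (-0.37, adjusted p = 0.0709). Of all genes these fits called 2.11%, 1.62% and 4.31% in microglia and 0.339% in oligodendrocytes. DESeq2 called 2 there (Glul in microglia, 0.0324, and Slc1a2 in oligodendrocytes, 0.0494), beside 7.01% and 0.819% of all genes. With nuclei thinned to 1000 UMIs, 4 members differed by Gfap (9.67% of 6452 genes), and 1 did so in dependence on tau (0.434%). Leaving out libraries gave 2 to 3 for the former, beside 13.7 to 15.8% of all genes tested, and 1 to 3 for the latter, beside 0.814 to 2.12%. The cause of these shifts was not tested.

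The unlabelled side as a term raised the genes called for tau in astrocytes from 410 to 646 over both genotypes, from 72 to 234 in Ch25h+/+ and from 5 to 28 in Ch25h-/-, with 0 members among them. Replicates 1 and 2 alone gave 453, 236 and 75 and replicates 3 and 4 alone 40, 16 and 1. Members among the clustering genes gave 293, 23 and 0 in the same order, no filter 480, 121 and 30, free RNA subtracted 309, 64 and 4, and DESeq2 517, 184 and 114, while the 2 groups alone gave 20 in Ch25h+/+ and 10 in Ch25h-/-. Without each library in turn they ranged from 261 to 544, 9 to 184 and 0 to 129. No paired analysis was possible because the replicate numbers follow the order of deposit and the labels pair no libraries by them; the fits with the side as a term are those above. The alternatives for Glul in microglia, the related genes, the dependence on tau and the thinned Gfap shares were chosen after seeing the data. Slc38a1 was called for tau over both genotypes in 26 of 26 settings, Sntb1 in 25 (not among replicates 3 and 4 alone) and Grm5 in 13. In the connexin list 10 of 14 genes were under the filter on low counts and were not tested.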
